A study of Mus musculus with 55 samples.

Results

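The voltage-gated sodium channels and the sodium leak channel of cortical pyramidal neurons were followed here through 8 genes. They were chosen by name from the 22800 symbols of the deposited count table, and no threshold on values was used. Scn1a, Scn2a1, Scn3a and Scn8a encode the pore-forming alpha subunits NaV1.1, NaV1.2, NaV1.3 and NaV1.6. Scn2a1 is the symbol under which the table lists the NaV1.2 gene, named Scn2a in current annotation. Scn2b, Scn3b and Scn4b encode beta subunits, and Nalcn encodes the pore of the sodium leak channel.

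An alpha subunit forms a complete sodium-selective pore that opens on depolarization and inactivates within milliseconds, which produces the rising phase of the action potential. Beta subunits are single-pass membrane proteins with an immunoglobulin-like domain that modify gating and surface expression of the alpha subunits. In mature pyramidal neurons NaV1.6 and NaV1.2 are concentrated at the axon initial segment, NaV1.1 is best known from inhibitory interneurons, and NaV1.3 is most abundant before and around birth. NALCN carries a voltage-insensitive sodium leak that sets the resting potential, and it works in a complex with UNC79, UNC80 and FAM155A.

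Each library was made from the contents of a single mouse prefrontal pyramidal neuron, taken up by a patch pipette. The cells that passed the study's quality control were 15 labelled D1 and 26 labelled D2 from mice without the knockout (WT), aged 28 to 34 and 29 to 35 days, and 6 D1 and 7 D2 cells from Fmr1-/y knockout mice (KO), a model of fragile X syndrome, aged 31 or 32 and 32 days. D1 and D2 name the dopamine receptor type given for the cell; the sources used here do not give how a cell was assigned, the strain or a reporter, and they name no drug. The labels do not name the animals, so each group was treated as 1 sample: no test was made, and every SD is a spread between cells.

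Total counts ranged from 260943 to 10673072 per cell, and the number of genes with a read from 1511 to 9938. A read in at least 4000 genes, here called gene-rich, was reached by 9 of 15 WT D1, 13 of 26 WT D2, 6 of 6 KO D1 and 6 of 7 KO D2 cells. Fmr1, the targeted gene, had reads in 8 of 15 WT D1 and 13 of 26 WT D2 cells and in 0 of 6 and 0 of 7 KO cells. All 8 markers of pyramidal neurons were read in each group, with a mean over the list of 4.91, 4.79, 6.14 and 5.59 log2 units in WT D1, WT D2, KO D1 and KO D2 cells. Interneuron markers averaged 0.50, 0.76, 0.22 and 1.06 log2 units in the same order, and 5 of the 8 (Gad2, Slc32a1, Pvalb, Vip and Lhx6) had no read in KO D1 cells. Glial markers were higher than these in each group. Astrocyte markers averaged 3.13, 2.70, 2.64 and 2.74, oligodendrocyte markers 2.20, 2.65, 1.98 and 3.09, and microglia markers 3.15, 2.17, 2.48 and 2.62. Markers of oligodendrocyte precursors and endothelium averaged at most 0.18 and 0.49. Their part in the values below was not tested. Genotype and age can hardly be told apart, and the side label and the kind of cell cannot be told apart at all.

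The alpha subunit genes are close paralogs, so how alike they are bears on what a read count means. Scn3a, Scn2a1 and Scn1a all lie on chromosome 2 (GRCm38). Scn3a spans 65457118 to 65567627 on the minus strand and Scn2a1 65620771 to 65767447 on the plus strand. Scn1a spans 66270778 to 66440840 on the minus strand, and Scn8a lies on chromosome 15 (100869858 to 101045938, plus strand). The longest run of identical coding bases was 188 between Scn1a and Scn2a, 184 between Scn3a and Scn9a and 143 between Scn3a and either Scn1a or Scn2a. Scn8a shared at most 55 bases with any of them. Across whole transcripts the overlap was small. Of all stretches of 50 bases, 4.03% of Scn1a, 5.76% of Scn2a1, 6.49% of Scn3a and 0.0374% of Scn8a also occurred in a transcript of another gene, and at 100 bases these shares were 0.876, 1.03, 2.22 and 0%. Scn2b shared 1.01% of its stretches of 50 bases, Nalcn 0.297%, and Scn3b and Scn4b none. The sources used here do not say how reads that map to several places were counted, so a small part of the Scn1a, Scn2a1 and Scn3a counts is uncertain. None of the 8 genes shared exon bases with another annotated gene.

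Values below are CPM, a gene's counts scaled to a common total per cell. Most genes ranged from no read to over 100 CPM within a group, as the plot of single cells shows. SDs between cells were therefore as large as the means for most genes.

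**Figure D1:**
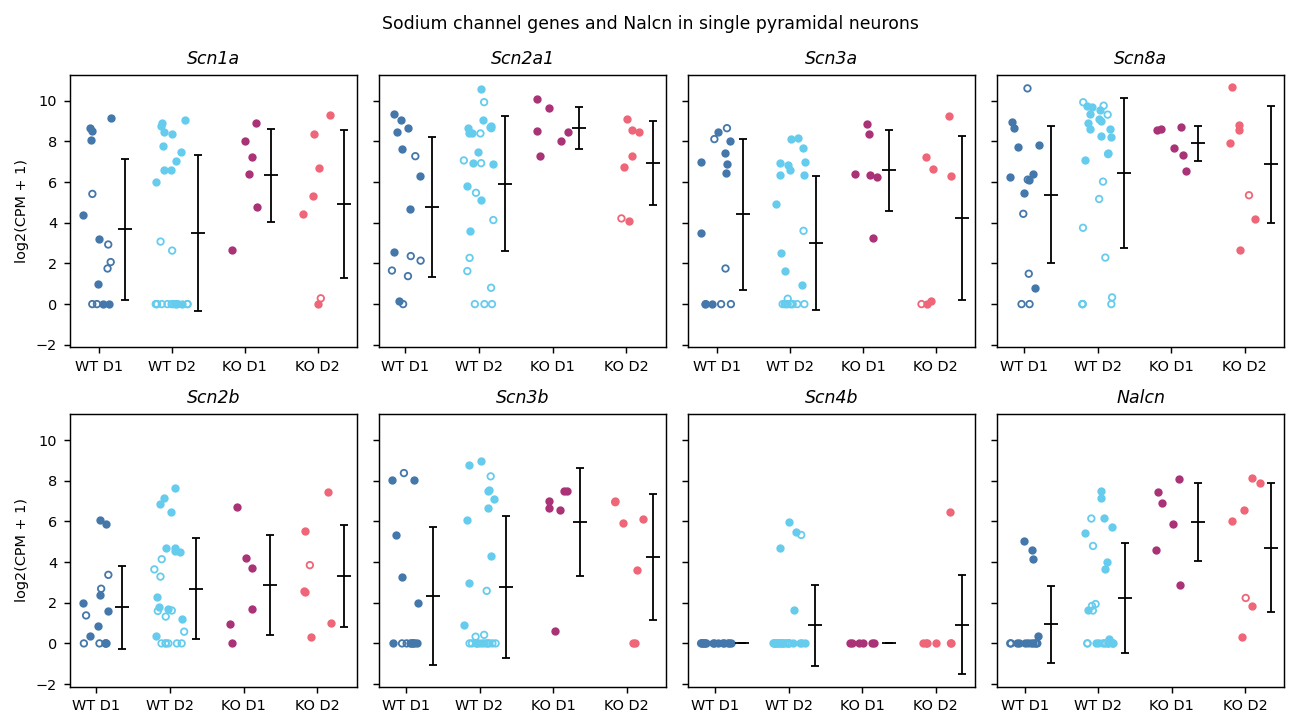
Level of each gene in single cells, as log2(CPM + 1) on the vertical axis, for 15 WT D1, 26 WT D2, 6 KO D1 and 7 KO D2 cells. Points are cells, filled where the cell was gene-rich; bars give the mean and SD over cells, which can pass below 0. Each group spans a wide range for each alpha subunit, Scn4b stays at 0 in both D1 groups, and the KO Nalcn points sit above those of most WT cells.

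Scn2a1 was the alpha subunit read in most cells: 14 of 15 WT D1, 23 of 26 WT D2, 6 of 6 KO D1 and 7 of 7 KO D2. In WT D1 cells it ran from 0 through a median of 24.2 to 649 CPM (mean 160 ± 219, SD, n = 15), and in WT D2 cells from 0 through 120 to 1510 CPM (250 ± 346, SD, n = 26). In KO D1 cells the lowest value was 155, the median 358 and the highest 1067 CPM (499 ± 354, SD, n = 6). In KO D2 cells the values were 16.2, 157 and 551 CPM (226 ± 205, SD, n = 7). The groups overlapped, but 10 of 15 WT D1 cells lay below the lowest KO D1 cell and 2 KO D1 cells lay above every WT D1 cell.

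Scn8a, the alpha subunit of the mature axon initial segment, was read in 13 of 15, 22 of 26, 6 of 6 and 7 of 7 cells in the same order of groups. Its lowest, median and highest values were 0, 68.6 and 1559 CPM in WT D1 cells (216 ± 401, SD, n = 15) and 0, 301 and 971 CPM in WT D2 cells (348 ± 328, SD, n = 26). They were 91.5, 292 and 413 CPM in KO D1 cells (273 ± 139, SD, n = 6) and 5.27, 240 and 1637 CPM in KO D2 cells (394 ± 576, SD, n = 7). A single cell held 48.1% of the summed CPM of WT D1 cells and another 59.3% of that of KO D2 cells. KO D1 cells were the most uniform group, and all 4 ranges overlapped.

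Scn1a, the interneuron-associated subunit, was read in 11 of 15 WT D1, 13 of 26 WT D2, 6 of 6 KO D1 and 6 of 7 KO D2 cells. In WT D1 cells it ran from 0 through 6.62 to 567 CPM (112 ± 189, SD, n = 15), and in WT D2 cells from 0 through 2.60 to 535 CPM (112 ± 170, SD, n = 26). KO D1 cells had 5.31, 115 and 472 CPM (166 ± 176, SD, n = 6) and KO D2 cells 0, 38.9 and 630 CPM (160 ± 237, SD, n = 7). In both WT groups the median lay far below the mean, and all ranges overlapped.

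Scn3a, the developmental subunit, had reads in 10 of 15, 15 of 26, 6 of 6 and 5 of 7 cells. It reached from 0 through 87.4 to 401 CPM in WT D1 cells (120 ± 140, SD, n = 15) and from 0 through 1.51 to 282 CPM in WT D2 cells (54.9 ± 86.4, SD, n = 26). KO D1 cells had 8.57, 81.9 and 468 CPM (173 ± 181, SD, n = 6), and KO D2 cells 0, 77.7 and 604 CPM (133 ± 216, SD, n = 7). WT D2 cells were lowest by mean and median, with 11 of 26 cells without a read; 1 KO D2 cell held 64.8% of that group's summed CPM.

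Levels of different genes were compared per kb of merged exon length. In mean CPM per kb, Scn8a led in WT D1 cells (13.7 ± 25.4, SD, n = 15), followed by Scn2a1 (12.6 ± 17.2), Scn1a (10.1 ± 16.9) and Scn3a (9.63 ± 11.3). In WT D2 cells the order was Scn8a (22.1 ± 20.8, SD, n = 26), Scn2a1 (19.7 ± 27.2), Scn1a (10.1 ± 15.2) and Scn3a (4.41 ± 6.93). Scn2a1 led in KO D1 cells (39.2 ± 27.8, SD, n = 6), ahead of Scn8a (17.3 ± 8.81), Scn1a (14.9 ± 15.8) and Scn3a (13.9 ± 14.5). KO D2 cells had Scn8a first (25 ± 36.5, SD, n = 7), then Scn2a1 (17.7 ± 16.1), Scn1a (14.4 ± 21.3) and Scn3a (10.7 ± 17.3). By this mean Scn1a came after those and Scn3a last among the alpha subunits in each group. In every group neighbours in this order differed by less than the larger of their SDs. By median CPM per kb WT D2 and KO D1 cells kept the order. In WT D1 cells Scn3a led by median (7.01), ahead of Scn8a (4.35), Scn2a1 (1.90) and Scn1a (0.594). In KO D2 cells the median of Scn3a (6.24) lay above that of Scn1a (3.49).

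Every one of the 54 cells had a read of at least 1 alpha subunit, and 30 had reads of all 4: 8 of 15 WT D1, 12 of 26 WT D2, 6 of 6 KO D1 and 4 of 7 KO D2 cells. Among gene-rich cells 27 of 34 had all 4. The most abundant alpha subunit per kb was Scn2a1 in 22 cells, Scn8a in 17, Scn1a in 10 and Scn3a in 5. Cells with few alpha subunit reads are included, such as WT D2 cell 2 with 3 counts, all of Scn8a. Scn3a led in 3 of 15 WT D1 cells and 0 of 26 WT D2 cells. Its mean share of the summed alpha subunit signal was 22 ± 30.9% (SD, n = 15) and 6.41 ± 9.08% (SD, n = 26) in those groups. Scn2a1 and Scn8a together made up most of the signal in the average cell, and single cells departed widely from that average, as the plot of make-up by cell shows.

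**Figure D2:**
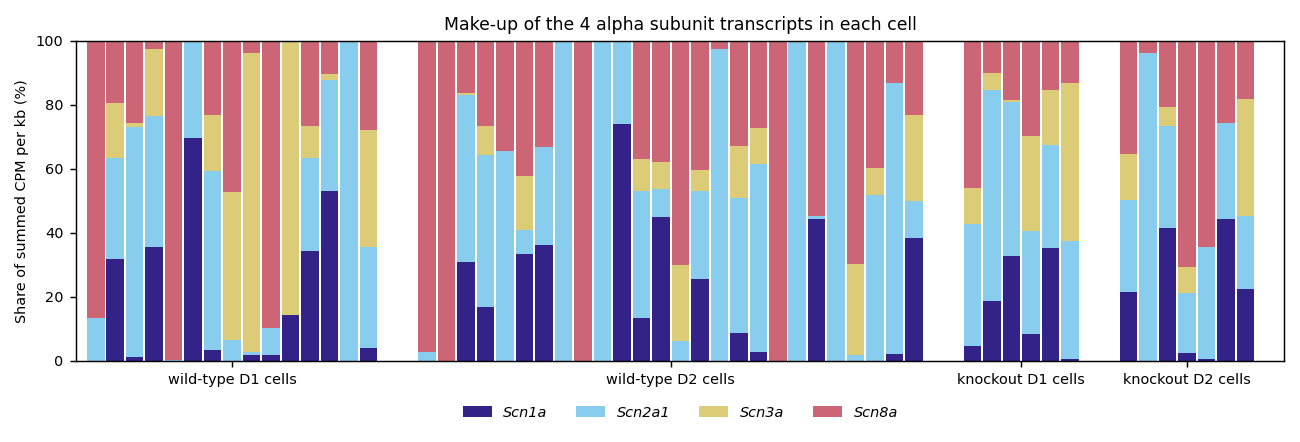
Share of each alpha subunit in the summed CPM per kb of the 4 genes (vertical axis, percent), 1 bar per cell, with cells ordered by number within the 15 WT D1, 26 WT D2, 6 KO D1 and 7 KO D2 cells. Several WT cells had reads of a single alpha subunit, from 3 counts (WT D2 cell 2) to 1976 (WT D2 cell 9), and none of these was gene-rich. The 6 KO D1 cells, all gene-rich, had reads of all 4.

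Among the beta subunits, Scn3b (chromosome 9, 40269217 to 40291618, plus strand), whose product pairs with alpha subunits without a disulphide bond, was the most abundant per kb in each group. Its mean was 11 ± 21.5 CPM per kb in WT D1 (SD, n = 15), 13.5 ± 25.3 in WT D2 (SD, n = 26), 20.5 ± 12.1 in KO D1 (SD, n = 6) and 10.2 ± 10.1 in KO D2 cells (SD, n = 7). It was read in 6 of 15, 14 of 26, 6 of 6 and 5 of 7 cells. The lowest, median and highest values were 0, 0 and 331 CPM in WT D1 cells, 0, 0.297 and 495 in WT D2 cells, 0.52, 113 and 178 in KO D1 cells and 0, 59.7 and 129 in KO D2 cells. The highest values therefore belonged to WT cells, and 5 of 6 KO D1 cells formed a narrow upper group, with the remaining cell close to 0.

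Scn2b (chromosome 9, 45117782 to 45130070, plus strand), a beta subunit that binds alpha subunits through a disulphide bond, was read in 10 of 15, 20 of 26, 5 of 6 and 7 of 7 cells at low levels. Its medians were 1.59 CPM in WT D1, 2.34 in WT D2, 7.09 in KO D1 and 5.05 in KO D2 cells. The highest cells had 66.2, 199, 103 and 171 CPM. In both KO groups 1 cell held most of the summed CPM (75.8% in D1 and 71.2% in D2), and the ranges of all groups overlapped.

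Scn4b (chromosome 9, 45138395 to 45154152, plus strand) encodes the beta subunit linked to resurgent sodium current. It was read in 0 of 15 WT D1 cells (exact 95% interval 0 to 21.8%), 5 of 26 WT D2 cells (6.55 to 39.4%), 0 of 6 KO D1 cells (0 to 45.9%) and 1 of 7 KO D2 cells (0.361 to 57.9%). Where present it was not at the limit of detection: the 5 WT D2 cells had 2.10, 24.9, 39.3, 43.8 and 61.4 CPM and the KO D2 cell 87.9 CPM. No read in WT D1 cells and a read in at least 5 WT D2 cells was found for 1.15% of the 11059 genes measured between these groups. That criterion was taken from the Scn4b values, and Scn4b counted as measured only through its WT D2 cells. The share is therefore a description and no test, and the exact intervals of both WT groups overlapped. Summed over cells, WT D2 cells had 5.62 CPM, at least 104-fold higher than what 3 counts would give in the total of the WT D1 cells. That sum rested on 5 cells, 1 of which held 45.5% of the counts.

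At an equal depth of 250000 reads per cell Scn4b was read in 0 of 15, 4 of 26, 0 of 6 and 1 of 7 cells, so the D1 groups remained without a read. All 6 cells with Scn4b reads also had reads of Bcl11b, a transcription factor of layer 5 pyramidal tract neurons. Of the 26 WT D2 cells 20 had Bcl11b reads and of the 15 WT D1 cells 6. Fezf2, another marker of these neurons, was read in 4 of the 5 WT D2 cells with Scn4b and in the KO D2 cell. It was read in 13 of 26 WT D2 and 7 of 15 WT D1 cells. The 11 pyramidal tract markers averaged 2.12 ± 2.05 log2 units in WT D1 (SD, n = 15) and 3.36 ± 2.45 in WT D2 cells (SD, n = 26), with values of 2.67 ± 1.32 (SD, n = 6) and 3.82 ± 1.80 (SD, n = 7) in KO D1 and D2 cells. As a list these markers were higher in the same groups as Scn4b. Fezf2 by itself was not between KO kinds, with a mean of 5.17 log2 units in KO D1 and 4.93 in KO D2 cells. The part of these markers in the Scn4b values was not tested.

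Nalcn (chromosome 14, 123276634 to 123627144, minus strand) was read in 4 of 15 WT D1 cells (exact 95% interval 7.79 to 55.1%), 14 of 26 WT D2 cells (33.4 to 73.4%), 6 of 6 KO D1 cells (54.1 to 100%) and 7 of 7 KO D2 cells (59 to 100%). In WT D1 cells the lowest value and the median were 0 and the highest 31.9 CPM (4.81 ± 10.3, SD, n = 15). In WT D2 cells they were 0, 1.12 and 177 CPM (23.6 ± 45.5, SD, n = 26). In KO D1 cells they were 6.43, 88.1 and 268 CPM (108 ± 100, SD, n = 6), and in KO D2 cells 0.241, 63.3 and 280 CPM (97.2 ± 117, SD, n = 7). In D1 cells 4 of 6 KO cells lay above every WT cell, and 12 of 15 WT cells lay below every KO cell. In D2 cells 2 of 7 KO cells lay above every WT cell.

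A read in every KO cell of both kinds was found for 7.15% of the genes measured in both comparisons of genotype, and of the 8 genes Scn2a1, Scn8a and Nalcn had it. After thinning to 250000 reads Nalcn was read in 3 of 15 WT D1, 12 of 26 WT D2, 6 of 6 KO D1 and 4 of 7 KO D2 cells. The share in KO D2 cells thus fell from 100 to 57.1%, beside 46.2% in WT D2 cells. The intervals on shares treat the cells as independent draws and leave out differences between animals, which are not named. They are no comparison of groups. Floors cover counting error only.

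**Figure D3:**
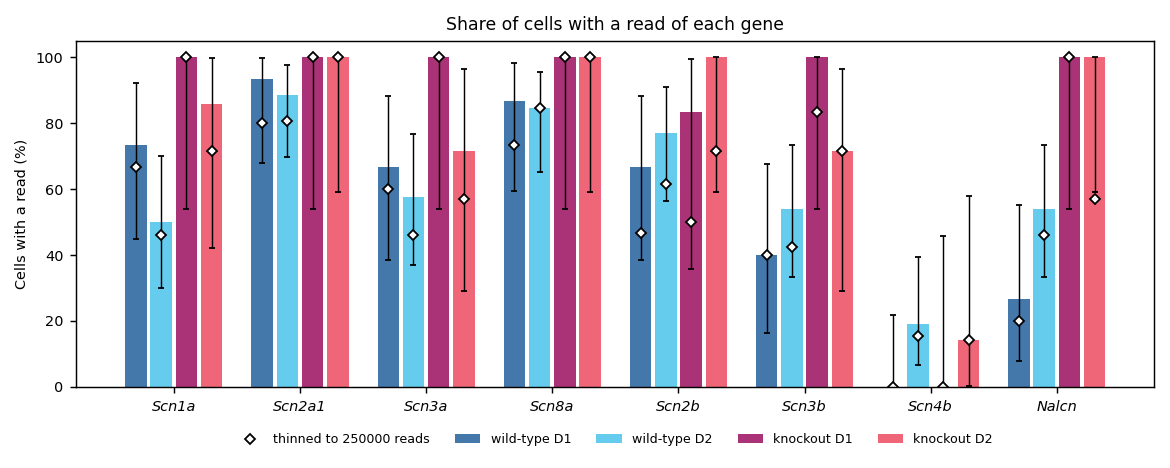
Share of cells with a read of each gene (vertical axis, percent) in the 4 groups. Bars give the share at full depth with its exact 95% interval, and diamonds the share after each cell was thinned to 250000 reads; Nalcn in KO D2 cells drops to 57.1% after thinning while it stays at 100% in KO D1 cells.

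Differences between groups are differences in mean log2(CPM + 1), each cell counting equally, and a difference of at least 1 log2 unit counts as past the fold. They are set beside all genes measured in the same cells, meaning a mean of 1 CPM or more and reads in 10% or more of the cells. Such differences weigh the number of cells without a read heavily, so values in gene-rich cells are given beside them and, for the 8 genes, values from summed counts. Comparisons that share a group of cells are not independent of each other.

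KO D1 cells had more transcripts of the sodium channel genes than WT D1 cells by this measure. Each of the 7 genes read there was past the fold upward, from Scn2b (1.11) through Scn3a (2.16), Scn8a (2.51), Scn1a (2.65), Scn3b (3.62) and Scn2a1 (3.89) to Nalcn (5.03). Of the 10792 genes measured, 49.6% were past the fold upward and 8.02% downward, and the median over the 7 genes was 2.65 beside 0.98 over all genes. Scn4b had no read in either group. The Scn2b value rested on single cells, being 0.95, 0.84 and 0.35 without KO D1 cell 1, 2 or 3 and 1.69 without cell 6. Nalcn ranked 82 from the top of the 10792 genes.

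In gene-rich D1 cells 6 of the 7 genes were past the fold, beside 28.5% of all genes, and the median was 1.55 beside 0.14. Scn3b (2.99), Scn2a1 (2.35) and Nalcn (4.40) differed most. From summed counts 2 of the 7 were past the fold, near the 25.1% of all genes: Scn2a1, with 455 CPM in KO and 201 CPM in WT cells, and Nalcn, with 108 and 4.72 CPM, a 22.9-fold ratio. Scn1a had 147 and 148 CPM by that measure. Against the 3 WT D1 cells of 31 days, no WT D1 cell being 32 days old, Scn1a (-1.36), Scn3a (-1.24) and Scn2b (-2.0) were lower in KO cells, whereas Nalcn (4.47), Scn3b (3.09), Scn2a1 (2.73) and Scn8a (1.54) were higher.

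In D2 cells 5 of the 8 genes were past the fold upward in KO cells: Nalcn (2.49), Scn3b (1.45), Scn1a (1.43), Scn3a (1.23) and Scn2a1 (1.02). Scn2b (0.63), Scn8a (0.44) and Scn4b (0.04) were not, and none was past it downward. Of the 11222 genes measured, 36.4% were past the fold upward and 6.91% downward, and the median over the 8 genes was 1.13 beside 0.56 over all genes. The count fell to 2 without KO D2 cell 3 or cell 7, beside 32.8 and 38.6% of all genes. It fell to 3 without cell 1, beside 31.9%. Single cells also set the values: Scn1a was 0.70 without cell 3, 0.85 without cell 7, 2.25 without cell 2 and 2.20 without cell 5. Scn3a was 0.40, 0.73, 0.83 and 0.89 without cell 7, 4, 3 or 1, 1.91 without cell 2 and 1.94 without cell 5 or 6. Scn2a1 lay under 1 without cell 1, 3, 4 or 7 (0.66 to 0.96), and Scn3b was 0.99 without cell 2 and just under 1 without cell 5. The other genes also turned on single cells: Scn8a ran from -0.19 (without cell 4) to 1.14 (without cell 2), Scn2b from -0.05 (without cell 7) to 1.13 (without cell 6) and 1.02 (without cell 4), and Scn4b was -0.89 without cell 3.

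In gene-rich D2 cells the direction turned for all genes but Nalcn. Scn8a was past the fold downward in KO cells (-1.60), as were 30% of all genes, Nalcn alone of the 8 was past it upward, beside 14.2%, and Scn2b (-0.91), Scn3b (-0.89), Scn1a (-0.85), Scn3a (-0.76), Scn4b (-0.29) and Scn2a1 (-0.19) lay below 0, and the median was -0.81 beside -0.39 over all genes. From summed counts the alpha subunits were also lower in KO cells: Scn2a1 157 against 308 CPM, Scn8a 229 against 383, Scn1a 104 against 153 and Scn3a 70.6 against 82.8 CPM. Nalcn was higher by 1.94 in gene-rich cells and by 2.52-fold from summed counts (78.6 against 31.2 CPM), and by 3.21 against the 5 WT D2 cells of 31 and 32 days.

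Nalcn was thus the gene that kept 1 direction between genotypes. Its KO difference stayed positive under all 14 alternatives in D1 cells (2.64 to 6.41) and all 15 in D2 cells (1.31 to 3.30), among them leaving out each KO cell in turn (4.61 to 5.64 and 1.92 to 3.22). In both kinds of cell it ranged widely between cells, and in D2 cells 3 of 7 KO cells had under 4 CPM. A difference of at least 1 log2 unit upward in both kinds was found for 21.8% of the 10203 genes measured in both, and for 5 of the 7 members measured in both.

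**Figure D4:**
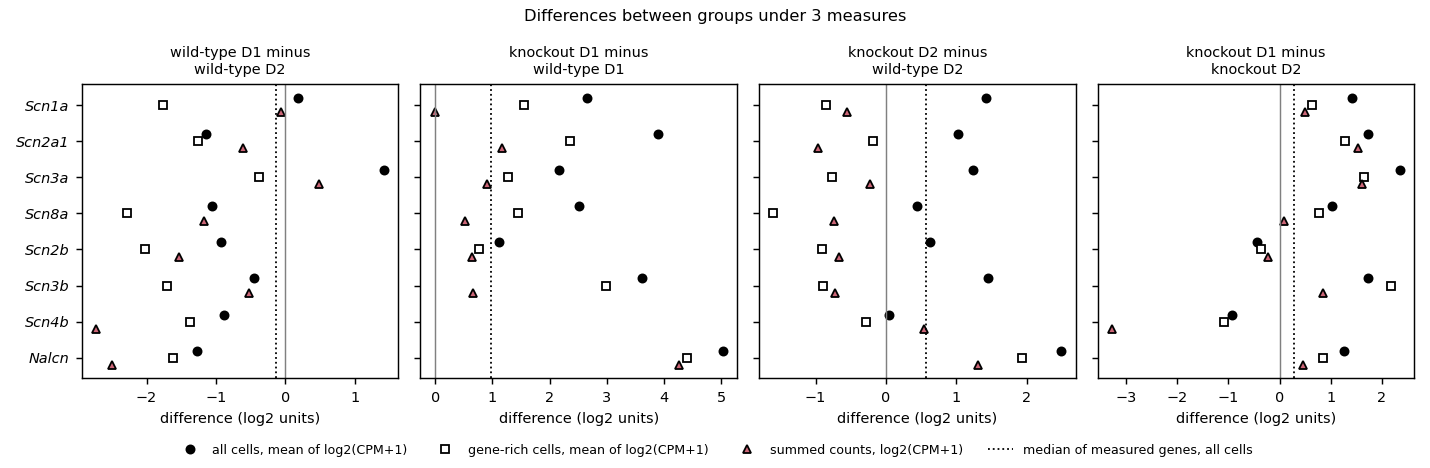
Difference between groups for each gene, in log2 units on the horizontal axis, 1 panel per comparison. Circles give the difference of the mean log2(CPM + 1) over all cells, squares the same over gene-rich cells, triangles the log2 difference of CPM + 1 from summed counts, and the dotted line the median over all measured genes in all cells. Nalcn lies right of 0 in both KO panels for all 3 measures, whereas the other genes in D2 cells move across 0 or close to it.

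Between the kinds of WT cell, 3 of the 8 genes were past the fold with lower values in D1 cells: Nalcn (-1.28), Scn2a1 (-1.14) and Scn8a (-1.06). Scn3a was past it in the other direction (1.42), and Scn2b (-0.92), Scn4b (-0.89), Scn3b (-0.44) and Scn1a (0.18) were not. Of the 11059 genes measured, 13.2% were past the fold downward and 9.21% upward; the median was -0.91 over the 8 genes and -0.14 over all genes. In gene-rich cells 7 of the 8 were past the fold downward, beside 33.4% of all genes, with a median of -1.66 beside -0.48, and Scn3a came to -0.38.

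The WT difference varied with age, and different ages mean different animals. At 29 days (4 D1 and 6 D2 cells) each of the 8 genes was lower in D1 cells, from Scn4b (-1.78) to Scn3b (-4.24). At 31 days (3 and 3 cells) 7 were higher in D1 cells, among them Scn8a (3.24) and Scn3a (6.97), and Scn4b had no read in either kind. Scn8a came to -0.76 at 30 days and -1.65 at 34 days. Without the cells of 29 days no member was past the fold downward, beside 10.9% of all genes. The median over the members was then -0.08 beside 0.05 over all genes. The pooled difference between D1 and D2 cells therefore did not hold within each age.

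In KO cells, 6 of the 7 genes measured were past the fold upward in D1 over D2 cells: Scn3a (2.35), Scn2a1 (1.73), Scn3b (1.73), Scn1a (1.41), Nalcn (1.26) and Scn8a (1.02). Scn2b came to -0.44, and the background was 32.9% upward and 21% downward of 10990 genes. Without KO D2 cell 5, the only KO cell that was not gene-rich, 3 of the 7 were past the fold. Among all cells the Scn1a value ran from 0.59 (without KO D2 cell 2) to 2.14 (without KO D1 cell 6 or KO D2 cell 3), with 0.90 without KO D1 cell 3. Nalcn was under 1 without KO D2 cell 3, 5 or 6 or KO D1 cell 4 or 5 (0.53 to 0.96), and Scn8a under 1 without KO D1 cell 1, 3 or 4 or KO D2 cell 2, 5 or 6 (0.32 to 0.89). Scn8a was 1.65 without KO D2 cell 4, and Scn3b was 2.80 without KO D1 cell 2 and 1.02 without KO D2 cell 3 or 6. Scn2b was past the fold downward without KO D1 cell 3 (-1.20) and above 0 without KO D1 cell 6 (0.14) or KO D2 cell 7 (0.24). In gene-rich cells Scn3b (2.18), Scn3a (1.65) and Scn2a1 (1.28) were past the fold, beside 27.5% of all genes. From summed counts, where 36.7% of all genes were past the fold upward, Scn3a (218 against 70.6 CPM) and Scn2a1 (455 against 157 CPM) were past it, and Nalcn had 108 against 78.6 CPM. Scn4b was read in 1 KO D2 cell only, and without it both KO groups were at 0.

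The partners of these channels were read from lists chosen by function. Of the NALCN complex, Unc80, the scaffold that bridges UNC79 and NALCN, was higher in KO cells of both kinds (3.06 in D1 and 2.18 in D2), and Fam155a, a membrane partner of the channel, by 1.77 and 1.40. Unc79 was higher in KO D1 cells (3.89) and lower in KO D2 cells (-1.52). In gene-rich cells the D1 differences were 2.58 for Unc79, 1.94 for Unc80 and 1.20 for Fam155a, and the D2 differences -3.65, -0.42 and 0.58. All 3 genes were thus past the fold upward with Nalcn in D1 cells under both measures. Of all measured genes, 49.6% were so in all D1 cells and 28.5% in gene-rich D1 cells. In gene-rich D2 cells none of the 3 was past it upward, beside 14.2% of all genes. Unc79 was past it downward there, beside 30%. Of the cells with Nalcn reads, Unc80 was read in 4 of 4 WT D1, 13 of 14 WT D2, 6 of 6 KO D1 and 7 of 7 KO D2 cells, but it was also read in 12 of 15 and 23 of 26 WT cells overall and in each KO cell. Unc79 was read in 4 of 4, 11 of 14, 6 of 6 and 3 of 7 cells with Nalcn, and Fam155a in 2 of 4, 7 of 14, 3 of 6 and 5 of 7. In WT cells Fam155a (-1.91; -2.97 in gene-rich cells) and Unc79 (-1.25; -2.43) were lower in D1 than in D2 cells, as Nalcn was. Between KO kinds Unc79 was higher (4.16; 3.80) and Fam155a lower (-1.54; -2.35) in D1 cells.

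Of the 6 genes that build the axon initial segment, where NaV1.2 and NaV1.6 are anchored, all 6 were past the fold upward in KO D1 cells, in all cells (beside 49.6% of all genes) and in gene-rich cells (beside 28.5%). The list median was 3.29 beside 0.98 over all genes. Sptbn4, the spectrin of the initial segment, differed most (4.67; 3.57 in gene-rich cells), followed by Sptan1, its alpha-spectrin partner (3.77; 1.82). In D2 cells 4 of 6 were past the fold upward, beside 36.4% of all genes, led by Sptan1 (3.38; 0.48) and Nrcam, a cell adhesion molecule of the segment (2.11; -0.59). In gene-rich D2 cells none was, beside 14.2% of all genes, and 5 of 6 lay below 0. There 3 were past the fold downward, beside 30%: Ank2 (-1.79), Sptbn4 (-1.60) and Ank3 (-1.39). Ank2 encodes an ankyrin that links membrane proteins to spectrin, and Ank3 the ankyrin that organises the initial segment. In WT cells Sptbn4 alone of the 6 was past the fold, lower in D1 cells (-1.63), whereas in gene-rich WT cells 5 of 6 were past it downward (Sptbn4 -3.17), beside 33.4% of all genes. Between KO kinds 5 of 6 were past it upward in D1 cells, also in gene-rich cells, beside 32.9 and 27.5% of all genes. Sptbn4 (2.68; 2.0) and Ank2 (1.98; 1.55) differed most.

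The FGF homologous factors bind the cytoplasmic tail of the alpha subunits and alter their inactivation. Of the 4, 2 were past the fold upward in KO D1 cells, close to the 49.6% of all genes: Fgf12 (3.62; 1.84 in gene-rich cells) and Fgf14 (2.93; 2.06). In D2 cells 3 of the 4 were measured, and Fgf12 was higher (3.35; 2.63) and Fgf13 lower (-1.34; -1.57) in KO cells. In gene-rich D2 cells Fgf14 was also past the fold downward (-1.11). None was past the fold between WT kinds, and Fgf14 was higher in KO D1 than D2 cells (2.84; 2.61).

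Among further sodium channel subunit genes, Scn9a, which encodes NaV1.7 and is best known from sensory neurons, was lower in WT D1 than D2 cells (-1.17; -2.13 in gene-rich cells), with no read in the D1 cells. It was higher in KO than WT D2 cells (1.84; 1.38) and lower in KO D1 than D2 cells (-1.87; -2.37).

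Of 9 genes listed here as sodium channel regulators, 5 were past the fold upward in KO D1 cells, a share near the 49.6% of all genes. They were led by Pnisr (3.67; 1.19 in gene-rich cells) and Crmp1 (3.6; 0.66), a collapsin response mediator. Pnisr, an RNA-binding protein of nuclear speckles, stood in the list without a role at sodium channels being shown here. In gene-rich D1 cells 2 were past the fold upward, beside 28.5% of all genes. Nedd4 (-3.19), a ubiquitin ligase, was past it downward, beside 22.7%. In KO D2 cells 4 were past it upward, near the 36.4% of all genes, led by Nedd4 (2.56; -1.13) and Crmp1 (1.88; 0.84). In gene-rich D2 cells none was, beside 14.2%, and 3 were past it downward, beside 30%. In WT cells Nedd4 (1.36; 0.49) and Crmp1 (1.28; 2.36) were higher in D1 cells. Between KO kinds Crmp1 (2.99; 2.18) and Pnisr (2.78; 1.70) were higher in D1 cells, and Nedd4 (-1.95; -1.56) and Calm2, a calmodulin gene (-1.16; -0.94), were lower.

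Cells in which a member was high also tended to be cells with many genes detected, so likeness between genes is given as a description over 54 cells that share depth. Among 7180 genes, the levels most like those of Scn2a1 by Spearman's rho were those of Lingo2 (0.74), Ncoa2 (0.71) and Plxna2 (0.71). Scn8a was most like Gria2, an AMPA receptor subunit gene (0.71), Grik2, a kainate receptor subunit gene (0.68), and Zfp236 (0.68). Scn2b was most like Trpc1, a cation channel gene (0.62), Fbxo3 (0.60) and Plekhj1 (0.59). The median rho over all genes was 0.31, 0.26 and 0.23 for the 3 members, and their own rho with the number of genes detected was 0.54, 0.49 and 0.47.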

How the data were processed

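Each library was 1 cell's cytosol, made from total RNA with Nextera XT, per the labels' protocols. The submitters' processing notes name Trimmomatic, STAR, featureCounts and GRCm38. Their settings, strand use and treatment of reads mapping to several places: not given in the sources used here. Whole-number read counts per gene were deposited by the authors (22800 symbols; 22880 Ensembl identifiers). The deposited normalized signal (14067 symbols) was checked to be those counts times 1 factor per cell (0.373 to 51.5). Each held 2 columns that match no sample label and were not used. The 1 KO D1 cell labelled as failing quality control was left out of all comparisons.

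Groups came from the labels. CPM were computed from each cell's total, with a pseudocount of 1 before the log2 scale. The highest Spearman correlation between counts of any pair of cells was 0.74, so no library appeared to be repeated. Intervals are exact at 95% (Clopper-Pearson for shares), and floors are 3 counts. Exon lengths and coding sequences (not printed) came from GENCODE vM21 on GRCm38, in which all 8 genes were found. The script was tested on simulated data. Alternatives were TMM factors (edgeR 4.0.16), totals without mitochondrial and 18S genes, the authors' values, a pseudocount of 10, summed counts, gene-rich cells, the Ensembl table, no filter on low values, cells of given ages and leaving out single KO cells. Python 3.11.15, numpy 2.4.6, pandas 2.3.3, scipy 1.17.1, matplotlib 3.10.9 and R 4.3.3 were used.

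The genes and lists were chosen with earlier results of these data known. Always named were the 8 members and Fmr1. Of each partner list and comparison, up to 2 measured genes of largest difference in each direction past 1 log2 unit were named, and for the 3 members read in most cells the 3 genes of highest Spearman correlation (mean of at least 10 CPM). Other genes of a partner list, such as Fam155a and Ank3, and the markers Bcl11b and Fezf2 were named after their values were seen. 1 further gene and some sequences are not reported here.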

Additional observations from a re-analysis of the deposited data

Results flagged for a closer look

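In KO D1 cells, Scn3b of cell 2 stood apart as the lowest at 0.52 CPM. On the scale of log2(CPM + 1) the gap to the next cell took up 0.863 of the group's range. In CPM, with the next cell at 92.3 and the highest at 178, the gap took up a smaller part. In KO D2 cells, Scn4b of cell 3 stood apart as the highest at 87.9 CPM, the other 6 cells being at 0. Combinations of group and gene examined in this way numbered 15. The usual rate of about 1 in 20 set apart by chance assumes normally distributed values. It does not hold for values with many cells at 0. A group with reads in 1 cell only, as for Scn4b here, always stands apart. The KO D1 cell labelled as failing quality control, which is in no comparison, had 15.8 CPM of Scn8a (15 of 950010 counts, 995 genes with a read), while the other 7 members and Fmr1 had no read there.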

How the results depend on the processing

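No paired analysis was possible because the labels give no replicate numbers and name no animal. Of 682 values recomputed under an alternative, 630 were classed as the same, by the spread between cells or by 1.5 times a count. A further 37 were classed as moved and 15 as reversed, and the cause was not tested. Not every change of sign was classed as reversed. Between WT kinds Scn1a kept its sign under 6 of 11 alternatives. Between D2 genotypes Scn4b kept it under 10 of 15, Scn8a under 12 of 15 and Nalcn under 15 of 15. Shares of cells with a read at equal depth in gene-rich cells only were an alternative chosen after seeing the data. Depth limits what a lack of reads shows in cells outside the gene-rich ones.

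Brackets after a count give the share of all measured genes past the fold in that direction under the same setting. Between WT kinds the count of members lower in D1 cells was 5 with the authors' values (21.1%). It was 0 with a pseudocount of 10 (2.99%) and 7 in gene-rich cells (33.4%). Without the cells of 29 days it was 0 (10.9%) and without those of 31 days 5 (24.6%). The count higher was 0 with a pseudocount of 10 (2.79%), from summed counts (17.8%) and in gene-rich cells (11.1%). Without the cells of 30 or 31 days it was also 0 (9.83 and 7.35%), and without those of 29 days 2 (16.3%). Scn3a came to -0.38 in gene-rich cells. For KO over WT D1 cells, summed counts gave a median of 0.65, 2 members higher (25.1%) and Scn1a at -0.0075. WT cells of 31 and 32 days gave 4 higher (37.1%) and 3 lower (25.4%), with Scn1a at -1.36, Scn3a at -1.24 and Scn2b at -2.0. For D2 cells 1 member was higher with a pseudocount of 10 (15.4%), from summed counts (15.1%) and in gene-rich cells (14.2%). In gene-rich D2 cells 1 was also lower (30%). Summed counts gave Scn1a -0.55, Scn2a1 -0.97, Scn3a -0.23, Scn3b -0.73 and a median of -0.61, and gene-rich cells -0.85, -0.19, -0.76, -0.89 and -0.81. Leaving out each KO cell gave 2 to 6 higher (31.9 to 46%). For KO D1 over D2 cells 3 members were higher with a pseudocount of 10 (18.8%) and in gene-rich cells (27.5%) and 2 from summed counts (36.7%). Leaving out each cell gave 3 to 6 higher (27.5 to 37.5%), and 0 to 1 lower (19 to 26.2%).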
